A study of Mus musculus with 22 samples.

Results

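Sox7, Sox17 and Sox18 are the 3 members of the SoxF family, and the account below describes the accessible chromatin around their genes in mouse retinal endothelial cells. Each locus was taken as a fixed mm9 window around the gene, and a region belonged to it if its midpoint lay in the window. The windows were chromosome 1 from 4.38 to 4.60 Mb for Sox17, chromosome 14 from 64.48 to 64.65 Mb for Sox7 and chromosome 2 from 181.34 to 181.48 Mb for Sox18. They held 55 of the 57267 regions on placed chromosomes in the control list and 49 of the 49558 in the gTKO list.

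The study sorted endothelial cells from retinas of C57BL/6 pups at postnatal day 6 by FACS. The control group had the genotype S1pr3-/- S1pr1flox/flox S1pr2flox/flox, and the gTKO group carried Rosa26-CreERT2 in addition. Pups of both genotypes received 100 µg tamoxifen by intraperitoneal injection on postnatal days 1 to 3, so S1pr3 loss and drug exposure were common to both. Rosa26 is active in most cell types, so the deletion of S1pr1 and S1pr2 was not limited to endothelium, and each replicate pooled retinas of several pups. The labels call the cells adult in their cell type entry, against the stated age. S1pr1, S1pr2 and S1pr3 encode receptors for sphingosine 1-phosphate, a lipid carried in plasma. ATAC-seq uses a transposase to cut open chromatin, so that regions with many insertions mark DNA not tightly packed in nucleosomes. The assay was run on 3 control and 3 gTKO libraries, and the series has 16 RNA-seq libraries whose values were not analysed here.

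SoxF proteins are transcription factors that bind DNA through a high mobility group box, and endothelial cells are their main site of action in vessels. In vessels, Sox17 is best known for arterial identity and for its links to Notch and Wnt signalling. Sox18 is known for vessel and lymphatic development, where it acts upstream of Prox1, and Sox7 for early endothelial and blood development. The family members overlap in function, and combined loss in mouse retina has stronger effects on vessel growth than loss of a single member. Genes of this kind are usually controlled by a promoter together with several enhancers, each seen in ATAC-seq as an accessible region.

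Each genotype is represented by 1 list of region positions for its 3 libraries. The values therefore have no replicate error, no test between genotypes was possible, and how deeply the libraries were sequenced is not known from the files. Shallower sequencing or a weaker signal also shortens such a list and trims its regions, which cannot be told apart here from a difference in chromatin. The 95% intervals of shares are exact (Clopper-Pearson). They express the error of counting alone and take regions as independent. The lists give positions without gene names, and an mm9 annotation was not used here. Which region is a promoter, lies in an exon or intron or belongs to a neighbouring gene was not determined, and neither the gene positions in the windows nor endothelial marker loci were checked. By RefSeq order in another mouse build, Sox17 lies next to pseudogenes and near Rp1, Sox7 lies between Pinx1 and 4930578I06Rik with Rp1l1 further on, and Sox18 lies between the small nuclear RNA gene Gm25879 and Tcea2, close to Rgs19. Rp1 and Rp1l1 are genes of photoreceptors, Pinx1 encodes a telomerase inhibitor and Tcea2 a transcription elongation factor.

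At all 3 loci every control region of at least 500 bp was overlapped by at least 1 gTKO region. That was usual, since only 2.37% of such regions in the whole control list had none. Regions of at least 1000 bp numbered 11 in the control list and 6 in the gTKO list. The differences lay in narrow regions, region edges and breaks within wide regions. The Sox17 window held 14 control and 10 gTKO regions, covering 8548 and 6376 bp. In the Sox7 window 28 control regions covered 14139 bp and 23 gTKO regions covered 10732 bp. Only the Sox18 window had more regions in the gTKO list, 16 against 13 in the control list, although they covered less sequence, 8983 against 11005 bp. The gTKO coverage was thus 74.6% of the control coverage at Sox17, 75.9% at Sox7 and 81.6% at Sox18. Over the 3 loci it was 77.4%, against 77.1% over all placed regions, so the difference in coverage at these loci as a set was close to that over the genome. The mean width was 611 bp in the control and 638 bp in the gTKO list at Sox17, 505 and 467 bp at Sox7, and 847 and 561 bp at Sox18.

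The windows had more accessible regions per length than the placed chromosomes as a whole. The control list held 6.36 regions per 100.0 kb at Sox17, 16.5 at Sox7 and 9.29 at Sox18, against 2.22 over the span of all placed chromosomes. Control regions covered 3.89%, 8.32% and 7.86% of the respective windows and 1.22% of that span. The windows were placed around genes and that span was not, so this difference need not be particular to the SoxF loci. Windows around other genes were not compared. Regions of at least 1000 bp numbered 2 at Sox17, 4 at Sox7 and 5 at Sox18 in the control list, which is 20% of the 55 regions against 15.3% of the whole list. In the gTKO list their numbers were 2, 1 and 3, which is 12.2% of 49 regions against 10.8%. The Sox18 window stood at the upper end in width, with a control median of 798 bp against 339.5 bp at Sox17, 361 bp at Sox7 and 359 bp in the whole list.

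**Figure D1:**
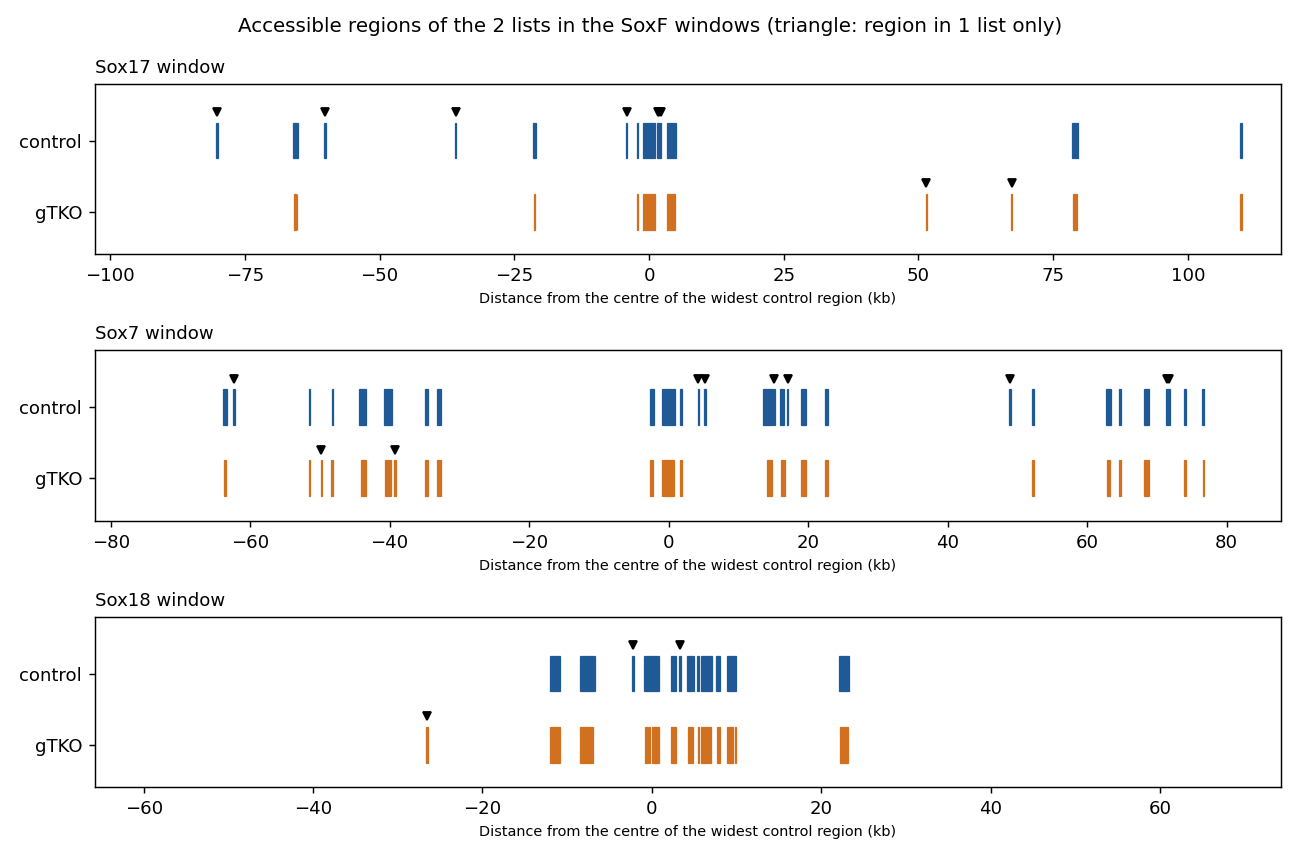
Positions of all regions in the 3 windows. The horizontal axis gives the distance in kb from the centre of the widest control region of that window, bars are regions drawn to scale with a thin outline (control in blue, gTKO in orange), and triangles mark the regions found in 1 list. Regions cluster around the centre at Sox17 and Sox18 and form several groups at Sox7; triangles lie over 7, 8 and 2 control regions and over 2, 2 and 1 gTKO regions.

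At Sox17, 7 of 14 control regions had no gTKO region over them (50.0%, 95% interval 23.0 to 77.0%), against 27% of all placed control regions. On the whole of chromosome 1 the share was 25.1%. The interval at Sox17 is wide and includes both values. The 7 control-only regions were narrow, from 151 to 348 bp, and together made up 18.2% of the control coverage. The wider ones lay to the left of the main cluster, at 4402492 to 4402839 (348 bp) and 4422575 to 4422905 (331 bp), with the nearest gTKO region 14056 and 5001 bp away. The next, from 4446890 to 4447040, had 151 bp, close to the smallest width in the lists (150 bp).

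The main cluster at Sox17 contained the widest control region of all 3 loci, and that region was almost identical in the gTKO list. Its borders were 4481680 and 4483978 among control regions (2299 bp) and 4481701 and 4483973 among gTKO regions (2273 bp), or 98.9% of the width. By width it ranked within the top 0.912% of the control list and the top 0.315% of the gTKO list. The companion region to its right, from 4486161 to 4487797 (1637 bp), measured 1460 bp in the gTKO list, 89.2% of the control width. Between these wide regions, 2182 bp apart, the control list held 3 narrow regions of 182, 200 and 155 bp, and the gTKO list held none there. These 3 regions lay 366 to 909 bp from the edge of the wide gTKO region. A further control-only region of 190 bp lay from 4478570 to 4478759, while the next one, from 4480650 to 4480832 (183 bp), was matched by a gTKO region of 179 bp. Regions with gaps of up to 3 kb were chained into runs, and this run of 7 control regions, from 4478570 to 4487797, held 56.7% of the control coverage of the locus. In it the gTKO list kept 3 regions and 80.7% of the covered sequence.

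The remaining Sox17 regions were isolated. The control region from 4416698 to 4417659 (962 bp) was overlapped by 2 gTKO regions of 497 and 152 bp with a gap of 29 bp, which covered 67.5% of it. From 4461226 to 4461783 the control region of 558 bp faced a gTKO region of 330 bp, which is 228 bp narrower and the largest narrowing of a matched pair at this locus. To the right, the regions from 4561361 to 4562344 and from 4592403 to 4592770 were 984 and 368 bp wide in the control list and 822 and 350 bp in the gTKO list. The gTKO list had 2 regions with no control region over them, from 4534213 to 4534375 (163 bp) and from 4550036 to 4550185 (150 bp). That is 20% of its 10 regions (95% interval 2.52 to 55.6%), against 9.75% of all placed gTKO regions. The nearest control region was 26985 bp away from the former and 11175 bp from the latter.

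The Sox7 window held the most regions, spread over 10 runs. Of its 28 control regions 8 were control-only (28.6%, 95% interval 13.2 to 48.7%), close to the share in the whole list. All 8 measured between 164 and 248 bp. The widest were from 64633592 to 64633839 (248 bp) and a pair of equal width, 217 bp, from 64633903 to 64634119 and from 64566421 to 64566637. Each control-only region lay within 3215 bp of a gTKO region, nearer than the most distant control-only regions of Sox17. The 2 gTKO-only regions were 8.70% of 23 (95% interval 1.07 to 28.0%), close to the 9.75% of all placed gTKO regions. One of them, from 64522873 to 64523199 (327 bp), was the widest one-list region of the gTKO list in the 3 windows and lay 279 bp from the edge of a control region. The other, from 64512378 to 64512527, had the smallest width of 150 bp.

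The widest Sox7 region, from 64561333 to 64563185 (1853 bp), was kept almost whole. In the gTKO list it was covered to 93.9% by regions of 211 and 1529 bp, with a gap of 18 bp between them. The second widest had the largest difference in width of all matched pairs in the 3 windows. Among control regions it ran from 64575847 to 64577162 (1316 bp), and among gTKO regions from 64576380 to 64577040 (661 bp), 50.2% of the width. The left edge lay 533 bp further in and the right edge 122 bp further in. Its neighbours within the same run also differed, since the control-only regions of 164 and 169 bp lay on either side of a region of 644 bp that measured 452 bp in the gTKO list. In this run, from 64575847 to 64585116, the gTKO coverage was 62.1% of the control coverage. In the adjacent run around the widest region, from 64559602 to 64567556, it was 78.3%. These runs held 23.5% and 22.1% of the control coverage of the locus.

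Other Sox7 regions ranged from nearly equal to clearly different in width. The control region from 64498324 to 64498883 (560 bp) measured 284 bp in the gTKO list, the second largest narrowing at 276 bp. The third widest control region, from 64521488 to 64522593 (1106 bp), measured 928 bp, and the region from 64517905 to 64518940 went from 1036 to 837 bp. By contrast, the regions from 64528996 to 64529623 (628 and 623 bp) and from 64626815 to 64627112 (298 and 296 bp) had nearly equal widths in the lists. Wider in the gTKO list were the regions from 64513935 to 64514113 (179 bp, against 268 bp) and from 64581293 to 64581915 (623 bp, against 632 bp). These were the only 2 of the 34 matched pairs in the 3 windows that were wider in the gTKO list. The left border of this window lay 0.177 kb from a control region outside it, and the first 18.3 kb inside it held no region of either list. With 20 kb trimmed from each side 5 of 21 control regions were control-only.

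At Sox18 all 9 matched regions were narrower in the gTKO list, 2 of them by only 4 and 13 bp. Over all placed pairs 79.5% were narrower. The 2 widest of 13 control regions were broken into parts (15.4%), against 5.28% of all placed control regions of any width. Both were among the widest 3.27% of the control list, and the share broken among regions of such width was not computed. Another 2 control regions had no counterpart. These 2 of 13 control regions (15.4%, 95% interval 1.92 to 45.4%) lay from 181403422 to 181403673 (252 bp) and from 181408917 to 181409156 (240 bp). On the whole of chromosome 2 the control-only share was 27.4%. The single gTKO-only region, from 181379154 to 181379317 (164 bp), lay 14467 bp from the nearest control region. It was 6.25% of 16 gTKO regions (95% interval 0.158 to 30.2%), against 9.75% of all placed gTKO regions.

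The widest Sox18 control region, from 181404871 to 181406658 (1788 bp), was overlapped by 4 gTKO regions. From left to right these were 194, 203, 150 and 875 bp wide, with gaps of 28, 105 and 162 bp, and they covered 79.5% of the control region. The right part, from 181405755 to 181406629, was the widest unbroken piece. The control region from 181397310 to 181398999 (1690 bp) was overlapped by gTKO regions of 1161 and 323 bp with a gap of 23 bp, covering 87.4%. When regions of a list at most 150 bp apart were joined, Sox18 had 12 control and 13 gTKO regions, so most of the surplus of gTKO regions came from short gaps.

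The other wide Sox18 regions kept a single counterpart. The region from 181411530 to 181412883 (1354 bp) had the same left edge in both lists and measured 1279 bp in the gTKO list. The outer regions, from 181393785 to 181394981 and from 181427868 to 181429056, measured 1197 and 1189 bp in the control list and 1078 and 981 bp in the gTKO list. The largest narrowing was 218 bp, for the region from 181414607 to 181415554 (948 bp), followed by 213 bp, for the region from 181409913 to 181410710 (798 bp). The region from 181413327 to 181413863 was the narrowest in proportion, with 348 bp in the gTKO list against 537 bp, or 64.8%. The run from 181403422 to 181415761 held 10 control regions and 63.0% of the control coverage of the locus. It contained 11 gTKO regions, whose coverage was 76.1% of the control coverage.

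**Figure D2:**
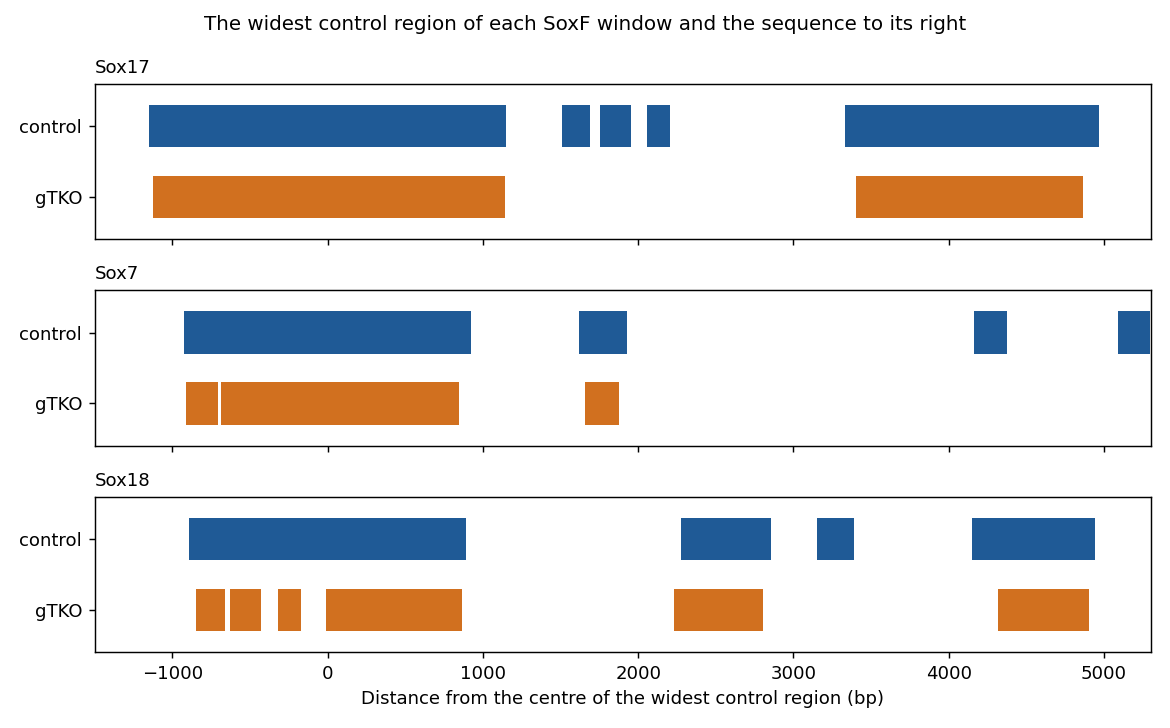
The widest control region of each window with the regions to its right. The horizontal axis gives the distance in bp from the centre of that control region, and bars are regions to scale (control above, gTKO below). The Sox17 region of 2299 bp has 1 gTKO counterpart of 2273 bp and is followed by 3 control regions with none below them; the Sox7 region has 2 gTKO parts and the Sox18 region 4.

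Across the loci, control regions with several gTKO regions over them numbered 1 at Sox17, 1 at Sox7 and 2 at Sox18. That is 7.27% of the 55 regions, against 5.28% of all placed control regions. The broken regions were 962 to 1853 bp wide, and the share of the whole list was not limited to such widths. In the opposite direction, 0 of 49 gTKO regions overlapped several control regions, which, taking 3 counts as the limit, allows for 6.12% at most, against 1.07% of the whole list. The widest control region was broken at Sox7 and Sox18 and unbroken at Sox17. At Sox7 that break was a gap of 18 bp, with 93.9% of the region covered. Among the broken regions only the widest at Sox18 held a gap above 150 bp, at 162 bp. Joining regions at most 150 bp apart thus left the other broken regions whole.

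Matched regions were nearly all narrower in the gTKO list. Among regions that overlapped a single region of the other list and were its sole partner, the gTKO region was narrower in 6 of 6 pairs at Sox17, 17 of 19 at Sox7 and 9 of 9 at Sox18. Together these are 32 of 34 pairs (94.1%, 95% interval 80.3 to 99.3%), against 79.5% of all 37878 placed pairs. The other 2 pairs were wider (5.88%), against 19.9%. The interval of the narrower share just left out the share of all pairs, but neighbouring regions may not be independent. These pairs were also wider in the control list, with a median of 568 bp against 476 bp over all pairs. No difference from all pairs in the share narrowed is concluded, and it was not tested. A width ratio of 1.5 or more was taken as a clear difference. By this measure 4 pairs were clearly narrower (11.8%, against 17.3% of all pairs), 1 each at Sox17 and Sox18 and 2 at Sox7. None of 34 was clearly wider, which allows a share of up to 8.82%, against 2.55% of all pairs. The Sox7 region of 179 and 268 bp, at 149.7%, was just under that limit. The median gTKO width was 92.1% of the control width at Sox17, 83.9% at Sox7, 82.5% at Sox18 and 84.8% over the 34 pairs. Over all placed pairs it was 86.6%, so the typical pair at these loci was narrowed about as much as pairs elsewhere. The gTKO region lay inside the control region in 23 of 34 pairs (67.6%, against 62.7% of all pairs). The left edge lay inward by a median of 37.5 bp and the right edge by 38.5 bp, against 30.0 bp for each over all pairs.

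**Figure D3:**
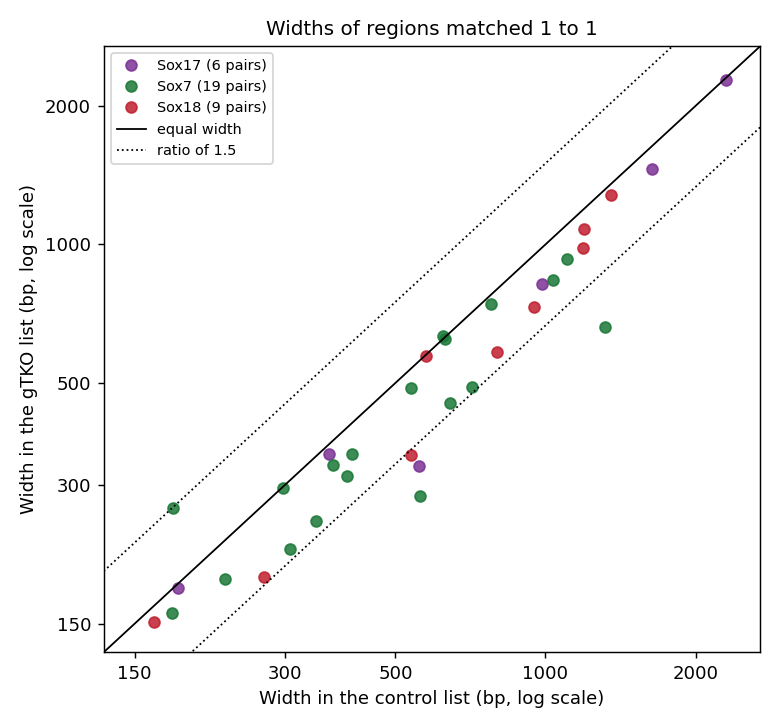
Width of each matched pair in the control list (horizontal axis) and in the gTKO list (vertical axis), in bp on log scales. Points are pairs coloured by locus, the solid line marks equal width and the dotted lines a ratio of 1.5. Of 34 points, 32 lie below the solid line and 4 below the lower dotted line, the farthest being the Sox7 region of 1316 bp with 661 bp in the gTKO list.

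Whether a control region had a counterpart went with its width, which the overlap rule of 1 bp itself favours. Of the 22 control regions under 300 bp in the 3 windows, 15 were control-only (68.2%, 95% interval 45.1 to 86.1%), against 52.5% of all placed control regions of that width. They were 5 of 6 at Sox17, 8 of 12 at Sox7 and 2 of 4 at Sox18. Of the 33 regions of at least 300 bp, 2 were control-only, both at Sox17, against 8.02% of the whole list in that range. No control region of at least 500 bp lacked a counterpart, 0 of 25, which allows a share of up to 12.0% and compares with 2.37% of the whole list. In the gTKO list 0 of 18 such regions lacked one, which allows up to 16.7%, against 0.0936%. Among control regions of at least 200 and under 300 bp, 9 of 12 were control-only (75%, 95% interval 42.8 to 94.5%), against 38.5%. Under 200 bp the numbers were 6 of 10 (60%, 26.2 to 87.8%), against 66.4%. From 300 to under 500 bp they were 2 of 8 (25%, 3.19 to 65.1%), against 19.1%. The classes of the 3 windows are small. That of 200 to under 300 bp alone had an interval that left out the share of the whole list. Several classes were looked at and neighbouring regions may not be independent, so no difference from the whole list is concluded. It was not tested.

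**Figure D4:**
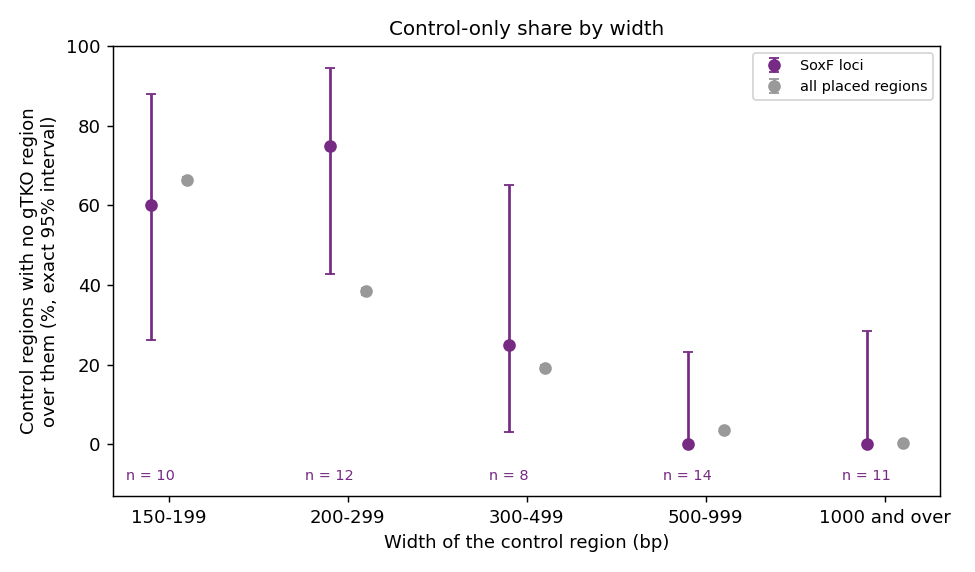
Share of control regions with no gTKO region over them, in percent with exact 95% intervals, by width class in bp. Purple points are the regions of the 3 windows, with their number below, and grey points are all placed regions. The share is 60% and 75% in the classes under 300 bp, 25% from 300 to under 500 bp and 0 above that.

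The difference in covered sequence was made up differently at the 3 loci. It came to 2172 bp at Sox17, 3407 bp at Sox7 and 2022 bp at Sox18. At Sox17, one-list regions accounted for 1244 bp net (57.3%), narrowing of matched pairs for 615 bp (28.3%) and the broken region for 313 bp (14.4%). At Sox7 narrowing came first with 2148 bp (63.0%), of which the region of 1316 bp gave 655 bp, and one-list regions followed with 1146 bp (33.6%). At Sox18 narrowing gave 1122 bp (55.5%), the broken regions 572 bp (28.3%) and one-list regions 328 bp (16.2%). The part at broken regions holds inward outer edges as well as gaps, so it is not separate from narrowing. The gaps came to 29 bp at Sox17, 18 bp at Sox7, and 23 and 295 bp in the broken regions of Sox18. Over the 3 loci the shares were 35.8% for one-list regions, 51.1% for narrowing and 13.1% for broken regions, against 36.4%, 52.0% and 11.6% over all placed regions. Differences between the loci rest on few regions and were not tested.

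**Figure D5:**
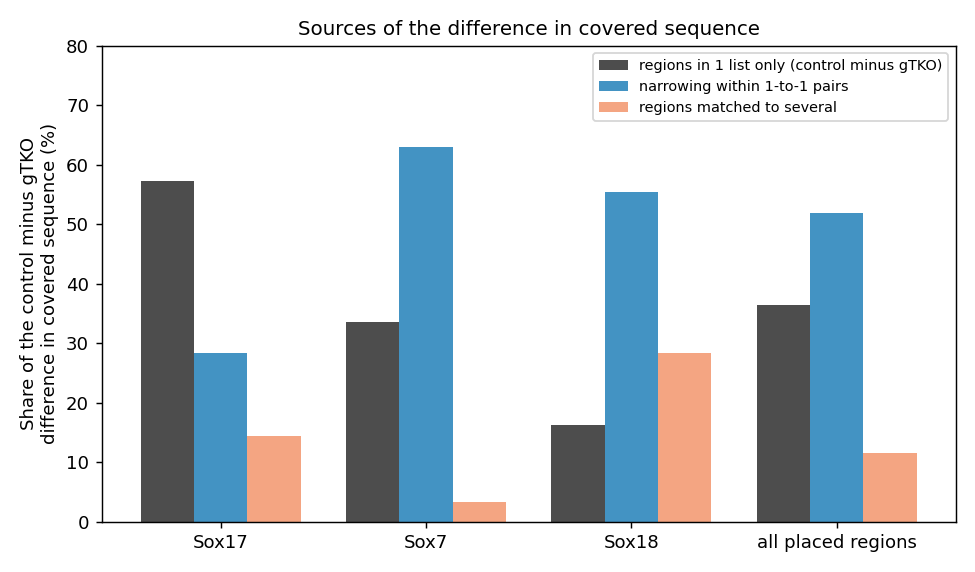
Sources of the control minus gTKO difference in covered sequence, in percent of that difference (vertical axis), for each locus and for all placed regions. Bars give one-list regions (control minus gTKO), narrowing within matched pairs, and regions matched to several. One-list regions give the highest bar at Sox17 (57.3%), and narrowing gives it at Sox7 (63.0%), Sox18 (55.5%) and over all placed regions (52.0%).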

How the data were processed

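The 2 lists deposited by the authors, 1 per genotype, give the start and end of each ATAC-seq peak in bp, without any measure of signal or significance. The submitters' processing notes name mm9 as the build and, among other tools, MACS2, Bowtie2, bedtools and Picard. The sources used here do not give how strictly peaks were called, or whether on pooled replicates. Depth per library is unknown.

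Starts are printed 1-based. Peaks on chromosomes 1 to 19, X and Y were used as regions, and none overlapped within a list. An overlap of 1 bp or more with the other list made a region shared. Gene order came from RefSeq (GRCm38.p6), where all 3 symbols matched, and no coordinate was taken from it. DNA sequence was not used. Named regions are, per locus, the 3 widest control regions, regions matched to several, the 2 widest one-list regions of each list, the 2 largest narrowings and widenings in bp, and the runs with the most control sequence. Further regions were named after their values were seen. The windows, lists and rules were chosen with earlier results of these data known. With 1 list per genotype no test was made. Matching was tested on simulated data derived from all 57267 control regions, where all 11586 dropped, 2615 split and 20289 narrowed regions were recovered. Each simulated region lay inside the control region it came from, so full recovery follows from the overlap rule. The simulated list held no outward edge shifts, regions of its own or merged regions, so it did not cover these. Alternatives covered the overlap rule, width, window borders, joining and list size. Python 3.11.15, numpy 2.4.6, scipy 1.17.1 and matplotlib 3.10.9 were used.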

Additional observations from a re-analysis of the deposited data

How the results depend on the processing

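Under 7 to 9 alternatives per result, the gTKO coverage stayed below the control coverage at every locus, from 65.7 to 77.4% at Sox17, 73.2 to 79.6% at Sox7 and 78.7 to 82.9% at Sox18. The value of 65.7% came from leaving out the widest Sox17 region, a setting chosen after seeing the data. The number of narrower pairs ranged from 5 to 7, 12 to 22 and 8 to 11, and the total number of pairs changed too. With the window extended by 20 kb on each side, 6 of 7 pairs were narrower at Sox17 and 11 of 12 at Sox18. Under the other settings all pairs at Sox17 and Sox18 were narrower. Counts of one-list regions were less stable. When regions under 300 bp were dropped from the lists, control-only regions numbered 2 at Sox17, 3 at Sox7 and 0 at Sox18, and gTKO-only regions 0, 1 and 0; fewer regions enter there, and a region whose sole partner was narrower counts as one-list. With the window trimmed by 20 kb on each side, Sox7 had 5 control-only regions. At Sox18 the gTKO-only count of 1 became 6 when the overlap had to cover 50% of both regions, since parts of the broken regions then have no partner. It became 2 with the window extended by 20 kb on each side, and 2 when the control list was cut to its widest regions, equal in number to the gTKO list. A stricter calling threshold was not run, since the lists hold no score. No paired analysis was possible because the 3 libraries of a genotype share 1 list, which also left no replicate to omit. Depth is unknown, and its effect on these values was not tested.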

Other observations

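Long stretches of the windows held no region in either list. At Sox17 the longest ran from 4487798 to 4534212 (46.4 kb), directly to the right of the main cluster, and ended at a gTKO-only region of 163 bp. At Sox7 the longest ran from 64529624 to 64559590 (30.0 kb) and from 64585117 to 64611133 (26 kb), which divided the window into 3 groups of regions. At Sox18 all 13 control regions lay between 181393785 and 181429056, with empty stretches of 50.9 kb to the right border and, apart from a gTKO-only region of 164 bp, 39.2 and 14.5 kb to the left.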
